A study of Mus musculus with 6 samples.

Results

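Mbp, Pmp22, Prx, Mag, Sox10, S100b, Egfl8 and Cnp are genes of Schwann cells and of myelin, and they were grouped because the ciliary nerves, which run through the choroid, carry Schwann cells. The 8 genes were chosen by symbol, matched to their Ensembl identifiers on the mouse GRCm38 annotation and read in each library, and they are 8 of the 15663 genes listed. RNA was sequenced from the RPE-choroid of 6 mice, that is the retinal pigment epithelium (RPE) with the vascular choroid beneath it. The 3 control mice were untreated C57BL/6 mice. The 3 mice with subretinal fibrosis (SRF), of the same strain, received 4 laser burns in each eye and, 10 days on, a second burn at every lesion. RNA was extracted 20 days after the second laser. By the methods the animals were male C57BL/6J mice 8 to 10 weeks old, and whether a library held RNA of 1 eye or of both is not given in the sources used here.

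Myelin is the stack of membrane that glia wrap around axons. Schwann cells make it in peripheral nerves and oligodendrocytes make it in the brain and optic nerve, and the 2 cell types share part of their myelin proteins and differ in others. Prx and Pmp22 are typical of peripheral myelin, Mobp and Mog of central myelin, and Mbp, Mag and Cnp occur in both. Sox10 is also made by melanocytes, which are numerous in the choroid, and S100b also by retinal glia. Neither gene is read here as telling Schwann cells from oligodendrocytes.

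The SRF and control groups overlapped for each of the 8 genes, and none passed the test between the groups. The quasi-likelihood test of edgeR with Benjamini-Hochberg adjustment called 0 of the 8 where a call needed an adjusted p under 0.05 together with an absolute log2 fold change of 0.5 or more, beside 0% of the 13454 genes tested. DESeq2 also called 0 of the 8, beside 1.14% of all genes. An unadjusted edgeR p under 0.05 was found for 0 of the 8 members and for 7.01% of all genes, and groups that did not overlap for 0 of the 8 and for 13.1% of all genes (6.71% higher and 6.43% lower in SRF). The fitted log2 fold change of SRF over control was above 0 for 5 members and below 0 for 3, with a median of 0.19 beside 0.00 over all tested genes. In bulk tissue, fewer cells of a type and less RNA per cell cannot be told apart.

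Counts on genes summed to between 13667310 and 24356023 per library. Control mouse 1 and SRF mouse 3 stood apart from the other 4 libraries in photoreceptor RNA: the CPM values (counts scaled to a common library size) of 25 photoreceptor genes summed to 18614 and 18336 there and to between 2045 and 3662 elsewhere. Without both of these libraries edgeR called 0 of the 8 members, beside 1.16% of the 13145 genes then tested, with log2 fold changes of 1.58 for Mag (adjusted p = 0.232), 1.33 for Mbp (adjusted p = 0.311) and 0.76 for Prx (adjusted p = 0.0846). Prx, Mbp, Pmp22, Egr2, Ncmap, Cldn19 and Drp2, taken as Schwann cell markers although Mbp occurs in both kinds of myelin, are all listed. Of 6 oligodendrocyte markers, Mog, Mobp, Cldn11 and Ermn are listed and Opalin and Hapln2 are not. The deposited data list only genes with at least 1 count in every library, so any listed gene was counted in all 6.

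The levels of the members can be ranked on FPKM, a value per length of transcript. Pmp22 had the highest mean FPKM over the 6 libraries (239, range 227 to 263), before Mbp (158, range 60.5 to 428) and S100b (139, range 95.2 to 186). Sox10 had a mean FPKM of 41.0 (32.6 to 48.0) and Cnp one of 28.2 (24.0 to 39.6). Egfl8 (5.97, range 5.15 to 6.54), Mag (3.15, range 1.20 to 8.90) and Prx (3.04, range 2.19 to 4.42) were the lowest. The ranges of neighbours in this order overlapped except between S100b and Sox10 and between Cnp and Egfl8. Some of these overlaps rested on the wide ranges of Mbp and Mag. The ranges of Pmp22 and S100b, and those of Egfl8 and Prx, did not overlap. The members also differed in their spread over the mice. The ratio of the highest to the lowest library in normalized CPM was 6.35 for both Mbp and Mag, 1.99 for Prx, 1.95 for S100b, 1.62 for Cnp, 1.47 for Sox10, 1.31 for Egfl8 and 1.20 for Pmp22. Over the 6 libraries, the SD of log2 CPM of Mbp was larger than that of 95.3% of the tested genes, and that of Pmp22 larger than that of 5.08%.

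**Figure D1:**
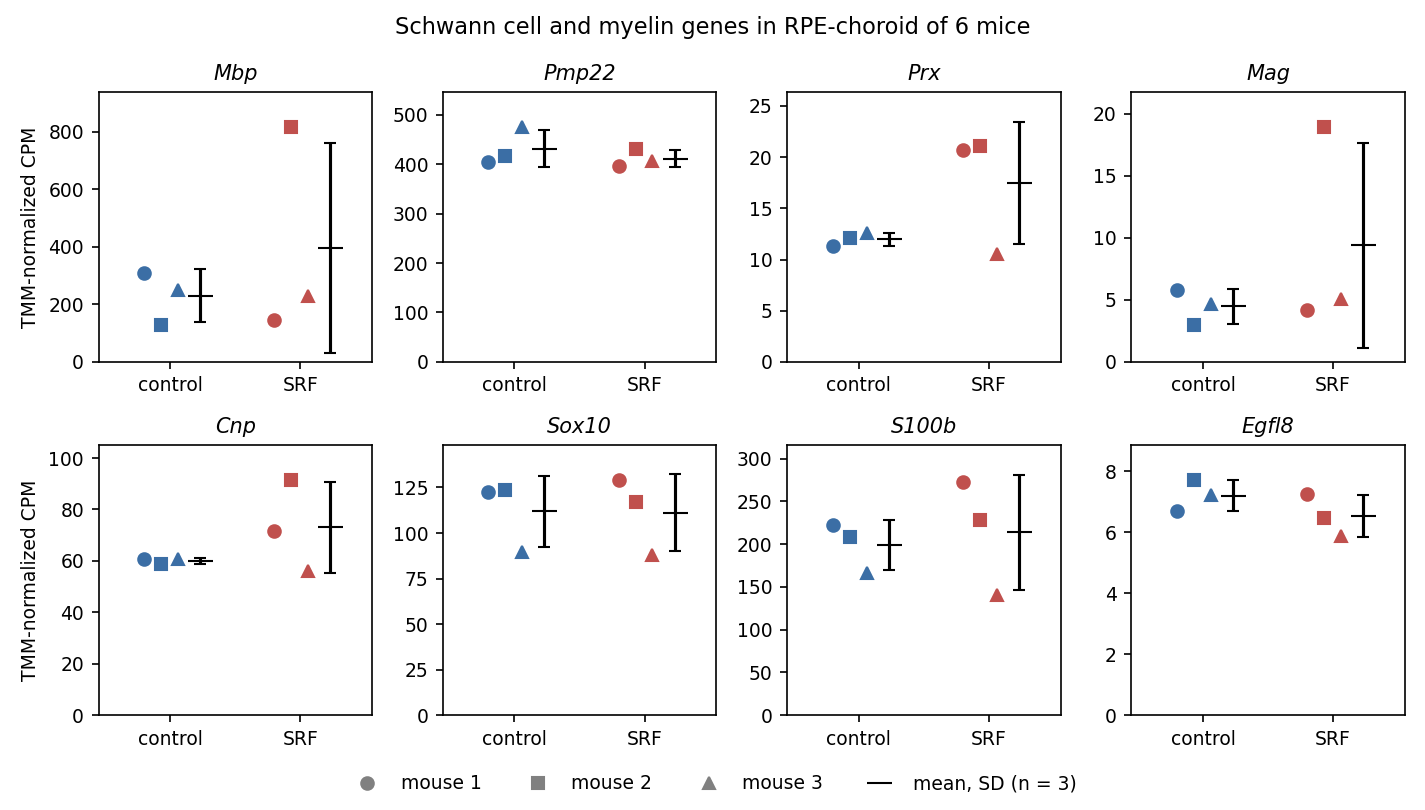
Normalized CPM of each of the 8 members (y axis, from 0) in the 3 control and the 3 SRF libraries, 1 point per mouse, with the mean and SD of each group beside the points. Mbp and Mag stand far higher in SRF mouse 2 than elsewhere, Prx is high in SRF mice 1 and 2, and the points of Pmp22 and Egfl8 lie close together.

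Mbp (ENSMUSG00000041607, chr18:82475146-82585637, plus strand) encodes myelin basic protein, which holds the cytoplasmic faces of compact myelin together. Its normalized CPM was 310, 128 and 251 in control mice 1, 2 and 3, and 144, 815 and 229 in SRF mice 1, 2 and 3. SRF mouse 2 was 2.63-fold above the next highest library, while SRF mice 1 and 3 lay within the control range. The group means were 230 ± 92.8 CPM in controls and 396 ± 365 CPM in SRF mice (SD, n = 3 each), and the log2 fold change was 0.79 ± 0.65 (standard error; edgeR adjusted p = 0.945). Without SRF mouse 2 it was -0.30, so the sign of the difference rested on 1 mouse.

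Mag (ENSMUSG00000036634, chr7:30899176-30914873, minus strand) encodes the myelin-associated glycoprotein, an adhesion molecule of the innermost myelin membrane that faces the axon. It was counted far less often than Mbp, with between 55 and 340 counts per library. Its CPM was 5.81, 2.98 and 4.67 in controls and 4.22, 18.9 and 5.04 in SRF mice. SRF mouse 2 was again the high library, 3.26-fold above the next, and the other 2 SRF mice lay within the control range. The log2 fold change was 1.07 ± 0.62 (edgeR adjusted p = 0.851) with all mice and 0.05 without SRF mouse 2.

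Prx (ENSMUSG00000053198, chr7:27499324-27520214, plus strand) encodes periaxin, a scaffold protein of the outer Schwann cell membrane that is needed to keep peripheral myelin stable. Its CPM was 11.3, 12.1 and 12.6 in controls and 20.7, 21.1 and 10.6 in SRF mice. SRF mice 1 and 2 lay above all controls and SRF mouse 3 below all of them. The group means were 12.0 ± 0.628 and 17.5 ± 5.96 CPM, and the log2 fold change of 0.54 ± 0.27 had the smallest edgeR p of the 8 genes (unadjusted 0.0891, adjusted 0.792). Without SRF mouse 3 it was 0.81 with edgeR and was not called, and 0.79 with DESeq2, where the adjusted p was 0.0041 and the gene was called, as were 2.68% of all genes in that fit. This was the 1 setting of those run in which a member was called. The CPM of 15 skeletal muscle genes summed to 2464, 3873 and 2358 in controls and to 5352, 4413 and 1482 in SRF mice 1, 2 and 3. The 2 highest sums and the lowest were in the same libraries as the 2 highest values and the lowest of Prx. The highest sum was in SRF mouse 1 and the highest Prx in SRF mouse 2, and in controls the sums differed more than Prx did. The part of muscle tissue in the values of Prx was not tested.

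Cnp (ENSMUSG00000006782, chr11:100574904-100591729, plus strand) encodes a phosphodiesterase of the non-compact myelin membrane. Its CPM was nearly the same in the 3 controls, at 60.6, 58.8 and 60.6, and 71.6, 91.3 and 56.2 in SRF mice 1, 2 and 3. As with Prx, SRF mice 1 and 2 were above all controls and SRF mouse 3 below them. The log2 fold change was 0.28 ± 0.18 (edgeR adjusted p = 0.884), and 0.09 without SRF mouse 2.

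The promoters of 4 members are shown because Mag was one of the pair that varied most between mice, and Prx, Cnp and S100b each had a CPM above all controls in SRF mice 1 and 2 and below them in SRF mouse 3. Each sequence is the 250 bases before the most upstream RefSeq start on GRCm38.p6, written 5′ to 3′ on the strand of the gene, and capitals mark ACAAAG or its reverse complement CTTTGT, a hexamer of the kind that SOX factors bind. The regions are chr7:30914923-30915172 for Mag, chr7:27499074-27499323 for Prx, chr11:100574689-100574938 for Cnp and chr10:76253586-76253835 for S100b.
Mag: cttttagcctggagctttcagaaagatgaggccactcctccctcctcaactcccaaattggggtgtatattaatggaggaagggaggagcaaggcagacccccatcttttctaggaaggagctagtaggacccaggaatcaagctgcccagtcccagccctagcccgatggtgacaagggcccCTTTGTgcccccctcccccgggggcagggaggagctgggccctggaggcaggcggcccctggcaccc
Prx: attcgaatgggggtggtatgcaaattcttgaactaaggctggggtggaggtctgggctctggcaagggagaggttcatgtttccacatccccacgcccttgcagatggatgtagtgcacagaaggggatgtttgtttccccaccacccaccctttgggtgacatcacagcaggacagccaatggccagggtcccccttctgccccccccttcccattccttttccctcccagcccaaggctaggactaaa
Cnp: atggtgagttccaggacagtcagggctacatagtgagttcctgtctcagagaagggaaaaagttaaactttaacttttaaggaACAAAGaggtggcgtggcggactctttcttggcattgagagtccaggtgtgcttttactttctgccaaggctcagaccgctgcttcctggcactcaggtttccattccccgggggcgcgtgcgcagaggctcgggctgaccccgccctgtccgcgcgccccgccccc
S100b: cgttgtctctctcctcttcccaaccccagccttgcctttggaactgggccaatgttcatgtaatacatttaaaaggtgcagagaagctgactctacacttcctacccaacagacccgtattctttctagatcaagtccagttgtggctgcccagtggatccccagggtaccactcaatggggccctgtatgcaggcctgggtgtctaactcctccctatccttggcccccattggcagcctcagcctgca
Both strands were searched for ACAAAG, for ACAATG and for GCGTGGGCG, a motif of EGR factors. Of 32851 mouse promoters of this length, 16.5% held the first, 10.7% the second and 0.536% the third. Promoters were at hand for 6 members, Pmp22, Prx, Mag, S100b, Egfl8 and Cnp, and 3 of them held ACAAAG: Mag 67 bases before the start on the reverse strand, Egfl8 111 bases before it on the reverse strand and Cnp 167 bases before it on the forward strand. The other 2 motifs were found in 0 of the 6. A match describes the letters in this window only.

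Pmp22 (ENSMUSG00000018217, chr11:63128982-63159547, plus strand) encodes a tetraspan membrane protein of compact peripheral myelin, whose dose is altered in inherited neuropathies, and many cells outside nerves make some of it. Its CPM was 404, 416 and 475 in controls and 395, 430 and 407 in SRF mice. The log2 fold change was -0.07 ± 0.11 (edgeR adjusted p = 1), and this standard error was the smallest of the 8 genes.

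Sox10 (ENSMUSG00000033006, chr15:79154908-79165240, minus strand) encodes the transcription factor that specifies Schwann cells and, with Egr2, turns on their myelin genes. Its CPM was 122, 124 and 89.6 in controls and 129, 117 and 87.7 in SRF mice. Both groups held 1 lower library, control mouse 3 and SRF mouse 3, and the log2 fold change was -0.01 ± 0.19 (edgeR adjusted p = 1). The CPM of 13 melanocyte genes summed to 6389, 7945 and 8403 in controls and to 7987, 8222 and 8661 in SRF mice, highest in those same 2 libraries, and their part in the level of Sox10 was not tested. Pigment genes of this list are shared with RPE, and Pmel and Tyrp1 are in the RPE list too. The sum is therefore not one of melanocytes alone.

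S100b (ENSMUSG00000033208, chr10:76253853-76261159, plus strand) encodes a calcium-binding protein that labels Schwann cells in sections. Its CPM was 222, 208 and 166 in controls and 273, 228 and 140 in SRF mice. SRF mice held both the highest and the lowest value, and the log2 fold change was 0.11 ± 0.25 (edgeR adjusted p = 1). Without SRF mouse 1 it was -0.11, and without both photoreceptor-rich libraries it was 0.42 with an adjusted p of 0.233.

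Egfl8 (ENSMUSG00000015467, chr17:34613349-34615971, minus strand) encodes a secreted protein with EGF-like domains. Its CPM was 6.70, 7.70 and 7.22 in controls and 7.25, 6.46 and 5.88 in SRF mice. It rested on between 90 and 173 counts per library, and the log2 fold change was -0.14 ± 0.21 (edgeR adjusted p = 1). Of the members, 3 lie partly across a counted gene of the other strand, as S100b overlaps Dip2a, Egfl8 overlaps Agpat1 and Cnp overlaps Dnajc7. The strandedness of the libraries is not given in the sources used here, so reads of the shared stretches could have been counted for either gene.

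**Figure D2:**
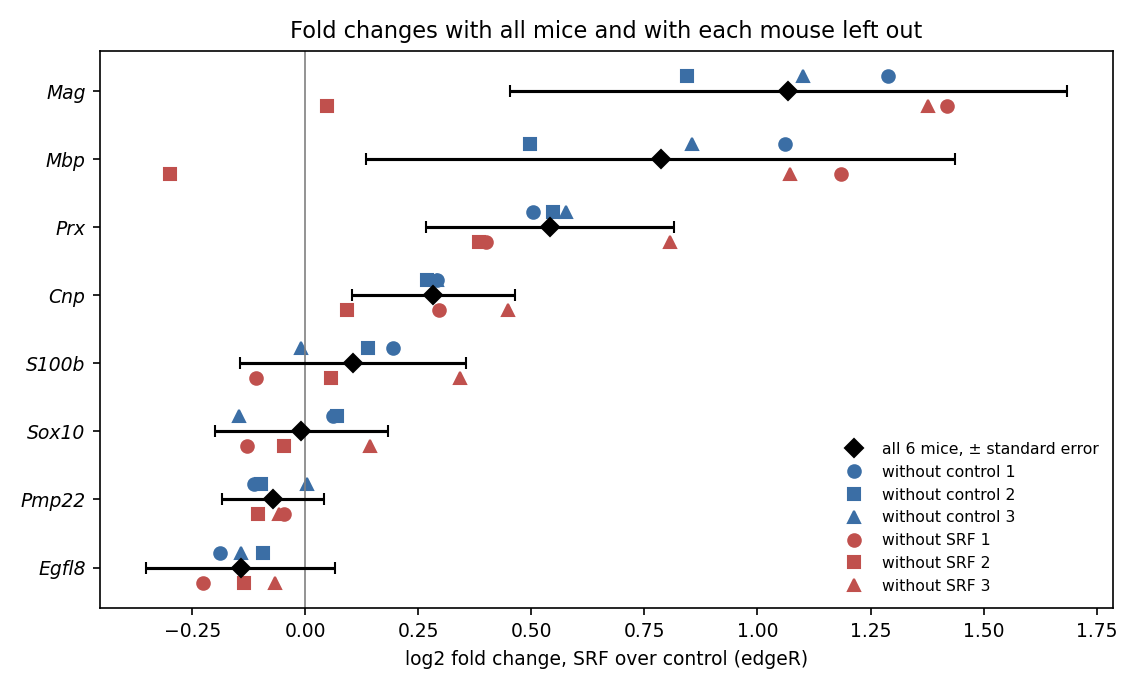
Log2 fold change of SRF over control from edgeR (x axis) for each member, with diamonds and bars for all 6 mice and their standard error, and coloured points for the fits without 1 mouse. Leaving out SRF mouse 2 takes Mag from 1.07 to 0.05 and Mbp from 0.79 to -0.30, whereas the points of Pmp22 and Egfl8 stay near their diamonds.

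The members did not vary together as 1 group. The likeness of 2 genes was measured as the root mean square difference of their log2 CPM over the 6 libraries, each gene centred on its own mean, and it is a description without a test. The closest pairs of members were Sox10 and S100b (0.13), Pmp22 and Egfl8 (0.14), Prx and Cnp (0.22), and Mbp and Mag (0.22). The least alike were Mbp and Egfl8 (0.95). Mag was the closest of all 13454 tested genes to Mbp, with Fa2h, which encodes the hydroxylase of myelin sphingolipids, next (0.40). For Mag the closest was Mbp, then Acsbg1, an acyl-CoA synthetase (0.31). Of the 8 members, 4 had their highest CPM in SRF mouse 2, namely Mbp, Mag, Prx and Cnp, as did 14.1% of all tested genes.

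Few genes shared the height of Mbp and Mag in SRF mouse 2. Of the 13454 tested genes, 7 (0.052%) were at least 2-fold above every other library there. Among these were Mag, Mobp, Mbp, Acsbg1, Six2 and Adgrd1, a list made after the values were seen. The same count was 7, 8 and 32 in control mice 1, 2 and 3, and 1 and 8 in SRF mice 1 and 3. The number itself was thus not particular to SRF mouse 2. Mobp encodes a myelin protein of oligodendrocytes, and its CPM was 43.8, 7.05 and 28.1 in controls and 0.487, 141 and 32.2 in SRF mice 1, 2 and 3. Mog, a protein of the outer surface of central myelin, was too low to be tested, with counts of 32, 7 and 23 in controls and 5, 121 and 23 in SRF mice. Olig1, a transcription factor of oligodendrocytes that was listed among genes of injured Schwann cells, had between 3 and 9 counts in 5 libraries and 57 in SRF mouse 2.

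Mobp and Mog were low in control mouse 2 and SRF mouse 1, the 2 libraries where Mbp was lowest, and high in SRF mouse 2. Mobp itself spread far more widely than Mbp or Mag and was not among the 3 nearest genes of either. The ratio of Mag to Prx in FPKM, a gene of both kinds of myelin against one of peripheral myelin, was 1.01, 0.486 and 1.04 in controls and 0.404, 2.01 and 0.973 in SRF mice. This ratio was lowest in SRF mouse 1, the library with the least Mobp, and highest in SRF mouse 2, the library with the most. The low ratio in SRF mouse 1 went with a high Prx (20.7 CPM, controls 11.3 to 12.6). Mag (4.22 CPM) was within the control range there. The high ratio in SRF mouse 2 restates the height of Mag and is no separate observation. The ratio of control mouse 3 is less comparable: counts and FPKM imply a length of Mag of 1.80 kilobases there and 2.18 to 2.44 elsewhere. There the FPKM of Mag was 2.56, above the 2.36 of control mouse 1, although its CPM was lower (4.67 and 5.81). Of the members, Prx and Cnp were also highest in SRF mouse 2, and Sox10 and S100b in SRF mouse 1. Which cells the reads of Mbp, Mag, Sox10 and S100b came from, and the part of optic nerve tissue in them, was not tested. Ermn, another gene of the oligodendrocyte list, did not share the pattern and was at 408, 433 and 397 CPM in controls and 301, 290 and 272 CPM in SRF mice. With Ermn as a large part, the CPM of the 11 oligodendrocyte genes listed summed to 704, 674 and 639 in controls. In SRF mice 1, 2 and 3 they summed to 541, 698 and 489. That sum was not highest in SRF mouse 2 and not lowest in control mouse 2 or SRF mouse 1. The list as a whole thus did not follow Mobp and Mog.

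**Figure D3:**
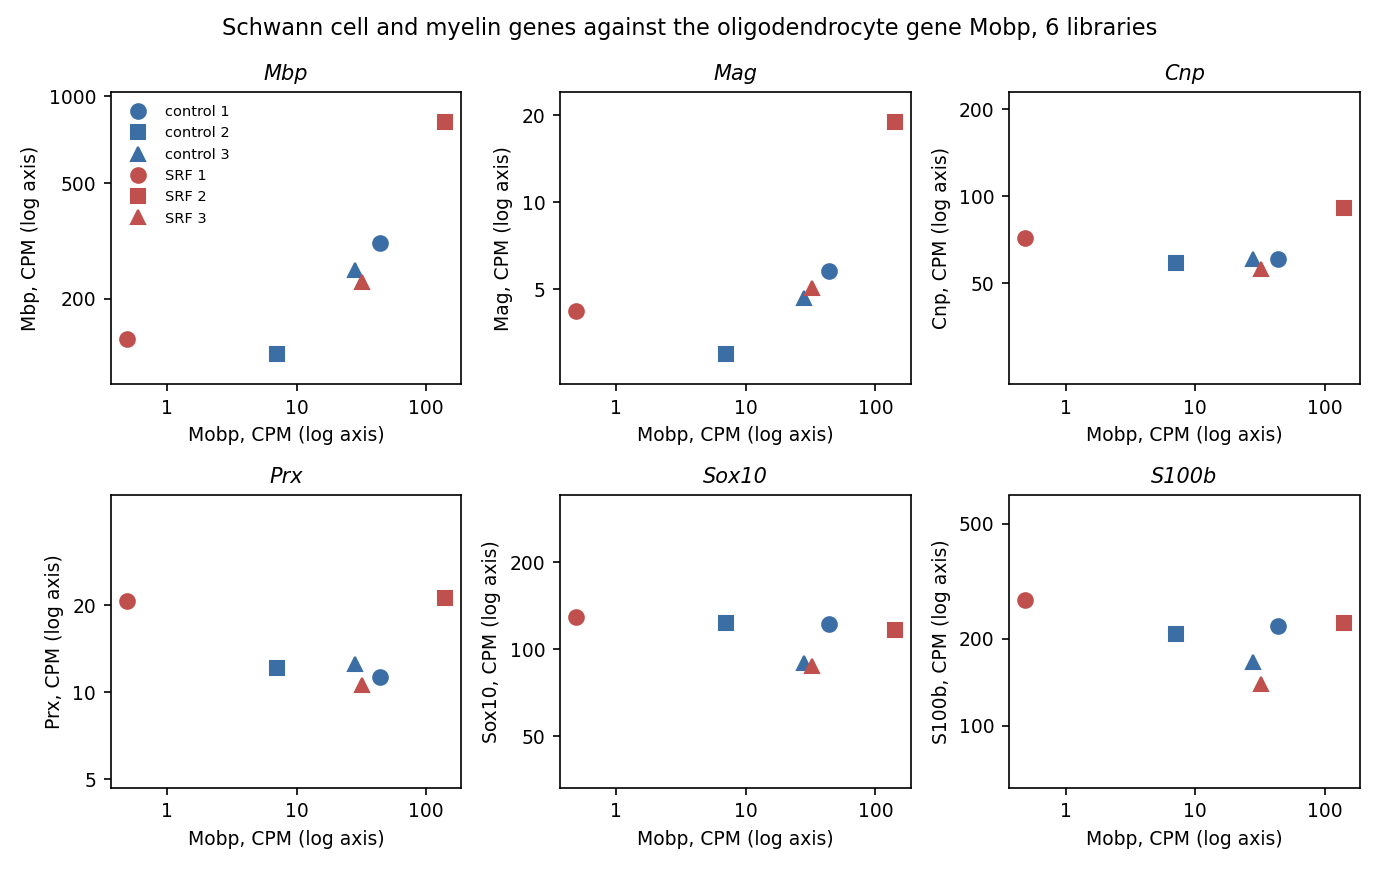
CPM of 6 members (y axes, log) against CPM of the oligodendrocyte gene Mobp (x axes, log), 1 point per library, blue for control and red for SRF. Mbp and Mag are highest in SRF mouse 2, where Mobp is at 141 CPM, and Sox10 and S100b are highest in SRF mouse 1, where Mobp is at 0.487 CPM.

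**Figure D4:**
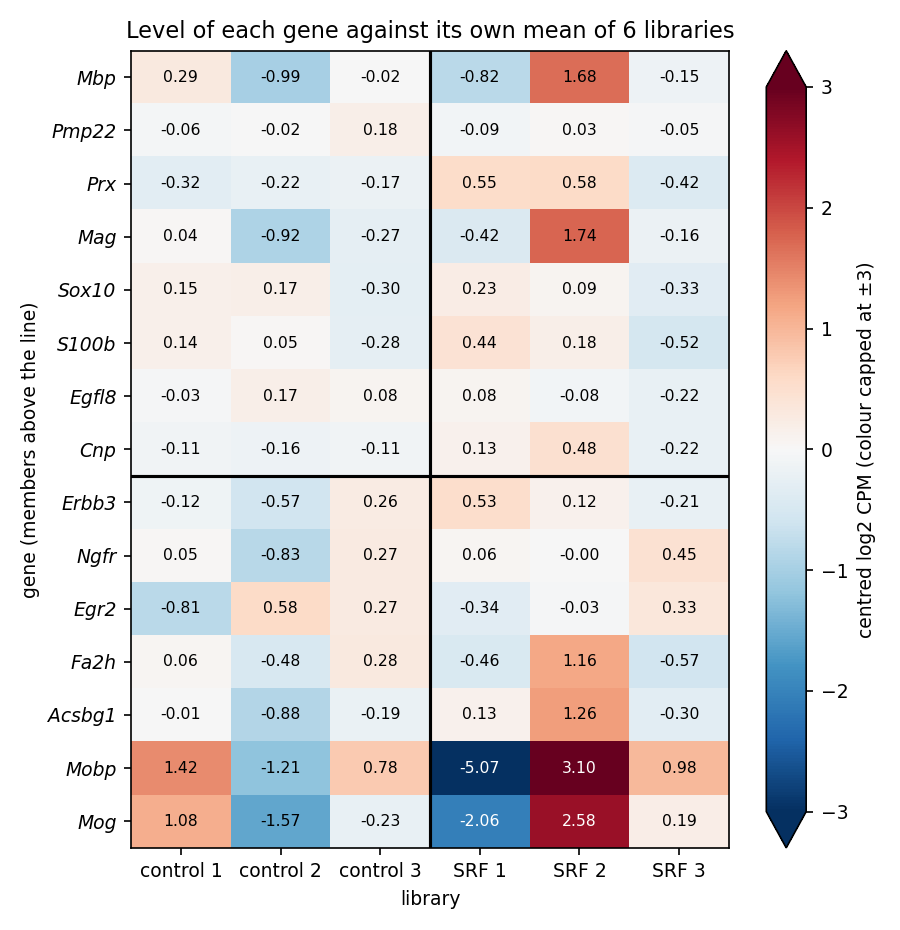
Log2 CPM of the 8 members (above the line) and 7 further genes of nerve and glia (below it) in each of the 6 libraries, each gene centred on its own mean, with the value printed in each field and the colour capped at 3 either way. The column of SRF mouse 2 holds 1.68 for Mbp, 1.74 for Mag and 3.10 for Mobp, but 0.03 for Pmp22 and 0.09 for Sox10.

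Genes with related roles in nerve gave no call with edgeR either. Of 18 further myelin genes, 15 were tested, and 1 was higher in SRF at an unadjusted edgeR p under 0.05 (4.16% of all genes were) and 0 lower (2.85% of all genes). This gene was Cd9, a tetraspanin of many cell membranes including myelin, with 326, 328 and 333 CPM in controls and 441, 463 and 363 CPM in SRF mice and a log2 fold change of 0.36 ± 0.12 (adjusted p = 0.578). The median log2 fold change of the 15 was 0.26. Of 20 regulators of the Schwann cell lineage 15 were tested, with a median of -0.01, and 0 had a p under 0.05. Among them, Egr2, the transcription factor of myelination, had a log2 fold change of -0.11 ± 0.40, and Erbb3, the receptor through which axons signal to Schwann cells, one of 0.28 ± 0.29.

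Of 20 genes of non-myelinating and injury-activated Schwann cells 17 were tested, and 1 was higher and 1 lower at an unadjusted edgeR p under 0.05. Scn7a, a sodium channel of non-myelinating Schwann cells, had a CPM of 28.1, 26.1 and 26.9 in controls and 32.2, 42.3 and 33.6 in SRF mice, with a log2 fold change of 0.41 ± 0.14 (adjusted p = 0.561). Bdnf, a neurotrophin that injured Schwann cells and many neurons release, had a CPM of 16.2, 19.0 and 14.9 in controls and 11.5, 9.80 and 8.51 in SRF mice, with a log2 fold change of -0.75 ± 0.19 (adjusted p = 0.404). The groups of both genes did not overlap, as for 13.1% of all genes, and neither gene passed the adjusted threshold. Both were named for a small p, so the lack of overlap is no separate result. Ngfr, the neurotrophin receptor that marks immature and injured Schwann cells, had a log2 fold change of 0.28 ± 0.33, and Gfap, which astrocytes and Mueller glia also make, one of -0.15 ± 0.46 with between 177 and 575 CPM.

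Of 27 genes of peripheral axons 16 were tested, with a median log2 fold change of -0.02, and of 10 genes of the nerve sheath all were tested, with a median of -0.03. In both lists 0 genes had an unadjusted edgeR p under 0.05. The CPM of the axon genes summed to 493 in control mouse 1 and 422 in SRF mouse 3, the photoreceptor-rich libraries, and to between 185 and 254 in the others, and several of these genes are also made by retinal neurons. Of the 16 oligodendrocyte genes 8 were tested. Enpp6 was higher in SRF at an unadjusted p under 0.05 (log2 fold change 0.70 ± 0.27, adjusted p = 0.644) and Ermn lower (-0.52 ± 0.10, adjusted p = 0.280). Ermn was the 1 gene of these nerve and glia lists called by DESeq2 (adjusted p = 0.000217). Its levels did not follow those of Mobp over the libraries, and which cells its reads came from was not tested.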

How the data were processed

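RNA of RPE-choroid from 3 control and 3 SRF mice was sequenced as 6 libraries, grouped by their labels. The authors filtered reads with FASTP 0.18.0, counted them per gene with StringTie and tested them with DESeq2. The deposited counts are raw whole numbers. FPKM values were deposited beside them, scaled by transcript length and library size. The aligner, build, annotation and strandedness are not given in the sources used here. GRCm38 was used because 15659 of the 15663 identifiers were found in GENCODE M21 on that build.

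A gene was tested where 2 or more samples had over 50 counts, with edgeR 4.0.16 in R 4.3.3 (TMM, glmQLFit with legacy = TRUE, group as the only term), with Benjamini-Hochberg adjustment over the 13454 genes tested. CPM values are TMM-normalized, with factors between 0.978 and 1.03, and errors are SDs over 3 mice or standard errors of the fit. Libraries of 1 group differed by more than counting noise, with a chi-square per degree of freedom of at least 17.8. The scripts were tested on simulated data.

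The members and gene lists were chosen with earlier results of these data known. Beside the members, Egr2, Erbb3, Ngfr, Mog, Mobp and Gfap were to be named, with up to 2 genes per list of the smallest p if under 0.05, the 3 genes nearest to each member whose log2 CPM spanned over 1, and counted genes that overlap a member. Values were computed for more genes than are named, and some are not reported here. Alternatives tried were DESeq2 1.42.0, limma 3.58.1 on log2 FPKM with a pseudocount of 0.1 or 1, RLE and upper quartile scaling, other count filters, a GC offset, a photoreceptor covariate, a replicate block and each mouse left out. Fits without both photoreceptor-rich libraries and DESeq2 with each mouse left out were added after seeing the data. Promoters were read from a RefSeq table for GRCm38.p6, in which 6 of the 8 members had a sequence to print; Mbp and Sox10 are named only.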

Additional observations from a re-analysis of the deposited data

How the results depend on the processing

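The members' call of 0 held in all settings run except DESeq2 without SRF mouse 3, which called Prx (0.79) and 361 genes in all. Calls over all genes were 0 with the main edgeR fit and with the replicate block, 1 each with legacy = FALSE, upper quartile scaling, no filter on low counts, filterByExpr and the photoreceptor covariate, 2 with limma on either FPKM scale, and 153 with DESeq2 and also with edgeR without both photoreceptor-rich libraries. With 1 mouse left out they ranged from 0 to 5 with edgeR (5 without control mouse 1) and from 67 to 361 with DESeq2. The cause of these differences was not tested. Calls in the 6 nerve and glia lists were 0 with edgeR, 1 with DESeq2 and 0 to 2 with DESeq2 and 1 mouse left out. The members' median was 0.43 without both photoreceptor-rich libraries, and 0.00 to 0.40 over the fits without 1 mouse.

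Without 1 mouse, the log2 fold change ranged from -0.30 to 1.18 for Mbp (-0.30 to 1.19 with DESeq2), -0.11 to 0.0031 for Pmp22 (-0.13 to 0.0058), -0.15 to 0.14 for Sox10 (-0.14 to 0.13), -0.11 to 0.34 for S100b (-0.11 to 0.33), 0.38 to 0.81 for Prx (0.38 to 0.79), -0.41 to 0.18 for Egr2 (-0.42 to 0.17), -0.69 to 1.72 for Mobp (-0.69 to 1.72), and -0.73 to 0.23 for Gfap (-0.73 to 0.22). For Fa2h it was 0.10 to 0.58 with edgeR, where it could not be tested without SRF mouse 2, and -0.51 to 0.57 with DESeq2. Sox10, at -0.01, turned to 0.0093 with upper quartile scaling, 0.037 with limma on both FPKM scales and 0.20 without both photoreceptor-rich libraries, Egr2 to 0.051 and 0.015 with limma, Mobp to -0.43 with limma on log2(FPKM + 0.1), and Gfap to 0.35 without both photoreceptor-rich libraries.

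Same-numbered mice are different animals, and the correlations of their deviations were -0.48, 0.47 and -0.31, so the numbers did not pair them. With the replicate block the log2 fold change was 0.40 for Mbp, 0.72 for Mag and 0.48 for Prx, and the block changed no call. The median standard error of 0.19 over all genes limits what 3 mice against 3 can show, and those of Mbp and Mag were over 3 times as large.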

Other observations

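Among the lists of other cell types, 11 of 16 tested macrophage genes were higher in SRF at an unadjusted edgeR p under 0.05 and DESeq2 called 8, with a median log2 fold change of 0.81. Ctss, a lysosomal protease of myeloid cells, was at 172, 178 and 191 CPM in controls and 447, 678 and 531 CPM in SRF mice (log2 fold change 1.61 ± 0.17, edgeR adjusted p = 0.106). Lyz2, the lysozyme of myeloid cells, had a log2 fold change of 1.49 ± 0.21 (edgeR adjusted p = 0.198). DESeq2 called both Ctss (DESeq2 adjusted p = 2.0e-15) and Lyz2 (DESeq2 adjusted p = 1.9e-08). SRF mouse 2, in which Mbp and Mag were highest, also held the highest CPM of 13 of the 16 macrophage genes. Of 20 RPE genes, 7 were lower in SRF at that p and 0 higher, with a median of -0.29, and DESeq2 called 2, Rgr (-0.69 ± 0.12) and Lrat (-0.74 ± 0.13), both of which act in the retinoid cycle. Of 13 melanocyte genes 1 was lower at that p, Mitf (-0.55 ± 0.16), and of 13 tested retinal glia genes 2, Car14 (-0.43 ± 0.13) and Rlbp1 (-0.30 ± 0.11). Rlbp1 is in the RPE list too, and pigment genes of the melanocyte list are shared with RPE. These counts are therefore not fully separate from that of the RPE genes. All 15 muscle genes had a fitted log2 fold change above 0 (median 0.42), beside 6773 of the 13454 tested genes, and 0 of them had a p under 0.05. Their summed CPM was above all controls in SRF mice 1 and 2 (5352 and 4413) and below them in SRF mouse 3 (1482). The 25 photoreceptor genes had a median of -0.09 and 0 with a p under 0.05.

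The deposited counts and FPKM together give an implied length of each gene, the CPM before TMM scaling divided by FPKM, which changes where the mix of transcripts changes. For Mbp it was 1.97, 2.07 and 2.05 kilobases in controls and 2.10, 1.95 and 2.02 kilobases in SRF mice, lowest in SRF mouse 2 and highest in SRF mouse 1, the reverse of the order of Mobp. The ratio of the highest to the lowest was 1.07, larger than that of 71.1% of 8071 genes with an FPKM of at least 5 in all libraries. For S100b and Cnp this ratio was 1.0003. For Mag, whose FPKM was below 5 in some libraries, it was 1.36, larger than that of 96.9% of those genes. The comparison was chosen after the values were seen and was not tested.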
